A study of Homo sapiens with 6 samples.

Results

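The genes described are those of the mitochondrial respiratory chain, measured in MOLT-3 cells, an established human line of T-cell acute lymphoblastic leukaemia. They were the protein-coding entries whose symbols start with NDUF, SDHA to SDHD, UQCR, COX followed by a digit or ATP5, and the protein-coding entries of the mitochondrial chromosome, 125 of 58735 genes in the deposited table. Of them, 83 were nuclear genes for subunits, 21 were nuclear genes for assembly factors, 13 were mitochondrially encoded, and 8 carried a matching name without being either a standard subunit or one of those assembly factors. The study compared 3 libraries from cells given compound E with 3 libraries from cells given the solvent DMSO, to look for genes under NOTCH1 control. Compound E inhibits gamma-secretase, the protease that releases the active intracellular part of NOTCH receptors. No agent or allele other than these is named for either group, and no source used here gives the dose or the length of treatment. Nothing states that replicates were separate cultures, so a p-value covers the spread among these libraries alone, and that spread may be technical. These are bulk measurements, in which fewer cells expressing a gene and less of its RNA per cell cannot be told apart.

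The respiratory chain passes electrons from NADH and succinate to oxygen across the inner mitochondrial membrane, and ATP synthase uses the proton gradient that results. Complex I (NADH dehydrogenase), complex II (succinate dehydrogenase), complex III (the cytochrome bc1 complex), complex IV (cytochrome c oxidase) and complex V (ATP synthase) are built from nuclear genes together with a small set of genes on mitochondrial DNA, except for complex II, which is wholly nuclear. Assembly factors insert cofactors and join subunits but are not part of the finished complex. The transcription factors NRF1, GABP and YY1 are known to act at promoters of many nuclear respiratory genes.

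Library totals lay between 17316138 and 19845114 counts, and gene values are given as CPM with TMM scaling between libraries. In the test across all genes, edgeR's quasi-likelihood test with Benjamini-Hochberg adjustment, 16926 genes entered, and a gene was called where its adjusted p fell below 0.05. The NOTCH targets NOTCH3, DTX1 and HES4 were 8.19-fold, 24.3-fold and 29.8-fold lower in compound E libraries than in DMSO libraries. All 10 T-lineage markers examined were expressed above the filter, whereas the B-lineage genes PAX5 and MS4A1 and the erythroid gene HBB had 0 counts in every library. In the third compound E library, gene counts differed from those of its 2 fellow replicates by a chi-square per degree of freedom of 2.66 and 2.75, against 1.65 to 1.89 for the other 4 pairs within a group.

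Promoter sequences of 4 nuclear genes are shown because these genes bracket the changes described here. NDUFA4L2 had the largest change of any member, UQCR11 had the largest rise and NDUFS4 the largest fall among called subunits, and ATP5PF, which also rose, was chosen because its promoter held all 3 motifs searched. Each sequence is the RefSeq stretch from 250 bases before the gene's start to 50 after it on GRCh38.p14, written 5′ to 3′ on the gene's own strand. Capitals mark matches to the NRF1 core CGCATGCG, the GABP motif CCGGAAG or the YY1 motif AAGATGGCG on either strand. The NDUFA4L2 promoter, chr12:57240713-57241012 on the minus strand, held none of them.
NDUFA4L2: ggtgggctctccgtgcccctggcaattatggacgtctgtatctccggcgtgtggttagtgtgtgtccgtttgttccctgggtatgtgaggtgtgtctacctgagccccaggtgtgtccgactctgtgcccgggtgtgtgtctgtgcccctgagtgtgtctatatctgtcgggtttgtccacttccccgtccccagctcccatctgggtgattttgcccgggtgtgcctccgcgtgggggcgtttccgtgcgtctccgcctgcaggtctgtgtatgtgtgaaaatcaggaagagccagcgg
The UQCR11 promoter, chr19:1605413-1605712 on the minus strand, held the GABP motif 2 times.
UQCR11: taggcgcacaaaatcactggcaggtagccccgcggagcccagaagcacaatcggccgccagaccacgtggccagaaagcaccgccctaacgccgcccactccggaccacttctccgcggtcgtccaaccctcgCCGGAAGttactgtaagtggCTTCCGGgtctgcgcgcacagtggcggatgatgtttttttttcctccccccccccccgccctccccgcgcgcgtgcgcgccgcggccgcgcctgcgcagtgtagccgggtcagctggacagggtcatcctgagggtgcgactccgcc
The NDUFS4 promoter, chr5:53560389-53560688 on the plus strand, held the YY1 motif just after the gene's start.
NDUFS4: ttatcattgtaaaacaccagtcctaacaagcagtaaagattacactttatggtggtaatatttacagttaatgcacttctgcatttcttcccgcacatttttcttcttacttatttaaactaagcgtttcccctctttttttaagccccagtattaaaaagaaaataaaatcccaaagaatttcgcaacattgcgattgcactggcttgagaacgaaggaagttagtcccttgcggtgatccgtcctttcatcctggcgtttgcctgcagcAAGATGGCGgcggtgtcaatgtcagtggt
The ATP5PF promoter, chr21:25735005-25735304 on the minus strand, held each motif 1 time.
ATP5PF: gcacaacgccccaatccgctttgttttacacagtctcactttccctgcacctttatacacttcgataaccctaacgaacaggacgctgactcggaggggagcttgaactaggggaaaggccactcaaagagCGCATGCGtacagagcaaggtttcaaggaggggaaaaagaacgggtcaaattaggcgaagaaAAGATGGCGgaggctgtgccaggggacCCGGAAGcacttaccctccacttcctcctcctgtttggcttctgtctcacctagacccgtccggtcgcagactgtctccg

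A promoter was found in the RefSeq table for 91 of the 112 nuclear members. The NRF1 core occurred in 13 of them, or 14.3%, against 2.19% of all 27305 promoters of the table and 4.02% of those of tested protein-coding genes. For the GABP motif the shares were 28.6% of the members, 10.7% of all promoters and 19.5% of promoters of tested protein-coding genes. For the YY1 motif they were 9.89%, 1.85% and 3.96%. Among subunits with a promoter, the GABP motif lay in 5 of 14 that rose, 0 of 8 that fell and 15 of 43 that were not called. In the same order, the NRF1 core lay in 3, 1 and 6 of them and the YY1 motif in 2, 2 and 4. Whether any motif goes with the direction of change was not tested. These counts describe letters in a window, and the absence of a match says nothing of whether a factor binds.

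The chain's mRNAs spanned several orders of magnitude in level, compared here per length in the FPKM values of the authors. Mitochondrially encoded mRNAs were highest, led by MT-CO2, a catalytic subunit of complex IV, with 7955 ± 915 FPKM in compound E libraries and 8965 ± 388 in DMSO libraries (SD, n = 3 each). Among nuclear subunits the highest was ATP5F1B, the catalytic beta subunit of ATP synthase, with 327 ± 5.48 FPKM in compound E libraries and 326 ± 0.562 in DMSO libraries. The nuclear complex medians were 20.4 FPKM in compound E and 19.6 in DMSO libraries for complex I, 16 FPKM in compound E and 17.1 in DMSO libraries for complex II, 39.2 FPKM in compound E and 41.9 in DMSO libraries for complex III, 54.4 FPKM in compound E and 54 in DMSO libraries for complex IV and 30.6 FPKM in compound E and 30.9 in DMSO libraries for complex V. Complex I ran between NDUFS5, with 190 FPKM in compound E and 196 in DMSO libraries, and NDUFA7, with 1.57 in compound E and 1.38 in DMSO libraries. Both are small accessory subunits, and their FPKM differed 142-fold in DMSO libraries. FPKM rests on the deposited gene length, which was 548 bases for NDUFS5 with a coding length of 318. For NDUFA9 it was 10391 bases with a coding length of 1131. Differences in FPKM between genes may therefore not equal differences in mRNA level.

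**Figure D1:**
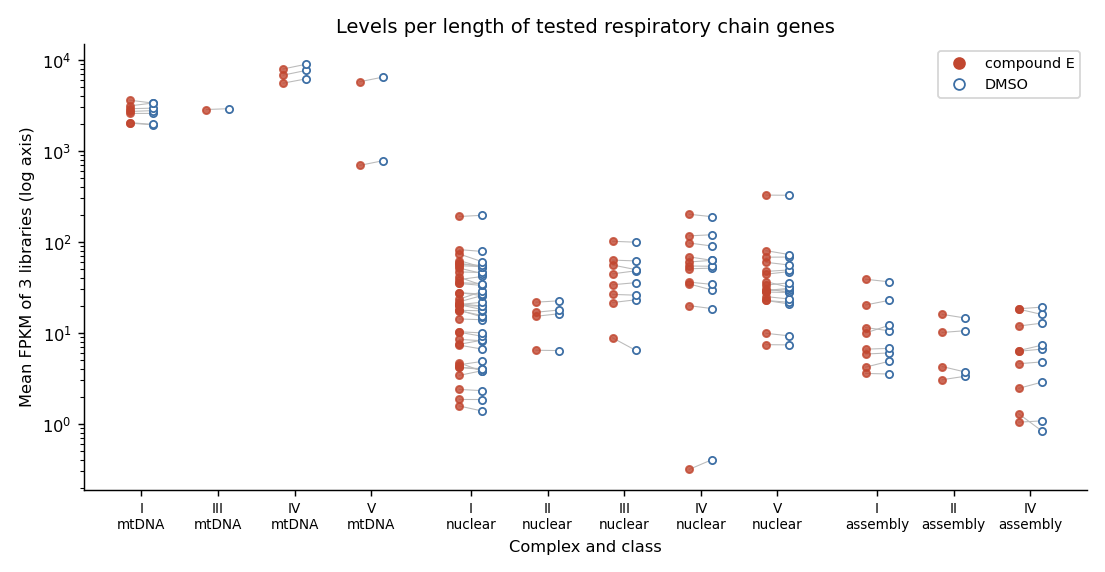
Mean FPKM of the 3 libraries of each group, on a log axis, for every tested subunit and assembly factor by complex and class, with lines joining compound E (filled, left) and DMSO (open, right). The genes of mitochondrial DNA (mtDNA) lie above all nuclear genes in both groups, and most lines are close to level.

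The tissue-restricted forms of complex IV subunits were near absent. COX6A2 and COX7B2 had 0 counts in every library, COX4I2 and COX8C never exceeded 2 counts, and COX7A1, the muscle form of subunit VIIa, had at most 8. These were the 5 nuclear subunits that did not pass the filter on low counts. The ubiquitous forms COX4I1, COX6A1, COX6B1, COX7B and COX8A made up at least 99.5% of the summed FPKM of their families on average in each group. COX6B2, the testis form, passed the filter with 1.21 ± 0.247 CPM in compound E libraries and 1.56 ± 0.303 CPM in DMSO libraries, a log2 fold change of -0.37 ± 0.26 (SE) that was not called. The 3 genes for the c subunit of the ATP synthase ring, which encode the same mature protein from different precursors, shared the family more evenly. ATP5MC1 held 32.1% ± 0.575 of its FPKM in compound E libraries and 32.1% ± 1.11 in DMSO libraries, ATP5MC2 36.9% ± 1.04 and 38.0% ± 0.54, and ATP5MC3 31.0% ± 0.532 and 29.8% ± 1.04, in the same order of groups.

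Over the 117 members that passed the filter, 21 rose and 27 fell with compound E, together 41% of them against 38.3% of all tested genes and 44.7% of tested protein-coding genes. By direction, the background was 18.9% higher and 19.4% lower over all tested genes, and 22.8% higher and 22% lower over protein-coding genes. The share of members called was close to these values. Changes were small: 2 called members, NDUFA4L2 and COX16, differed at least 1.5-fold, whereas 8.68% of all tested genes were called with a change of that size. The groups did not overlap in CPM for 43 of the 117, and for 46.8% of all tested genes. The 78 tested nuclear subunits divided into 18 that rose and 12 that fell, with a median log2 fold change of 0.03, beside 0.00 for tested protein-coding genes. Summed over the subunits, the level was 7493 ± 27.6 CPM in compound E libraries and 7443 ± 57.5 CPM in DMSO libraries (SD, n = 3 each), and the libraries of the groups overlapped. The number that fell was 7 without DMSO replicate 1, 7 without DMSO replicate 2 and 5 without compound E replicate 1, and DESeq2 called 11 higher and 5 lower.

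Complex I, the entry point for electrons from NADH, had 9 of 38 nuclear subunits higher and 5 lower. The share called, 36.8%, was close to the 38.3% of all tested genes. All 9 that rose were accessory subunits, counting NDUFA4 as one by its symbol. Accessory subunits made up 31 of the 38, and 38.7% of them were called. NDUFA1 measured 55.5, 58.0 and 56.3 CPM in compound E libraries, against 43.8, 46.9 and 49.5 CPM in DMSO libraries. Every compound E library lay above every DMSO library, with a log2 fold change of 0.28 ± 0.05 (SE; edgeR adjusted p = 1.19e-05). NDUFB3 measured 45.1, 45.5 and 45.2 CPM in compound E libraries, against 36.4, 39.3 and 35.8 CPM in DMSO libraries. Its groups were likewise apart, with a log2 fold change of 0.28 ± 0.05 (edgeR adjusted p = 2.28e-05). NDUFA6, a subunit of the LYR protein family, averaged 88.7 ± 1.85 CPM in compound E and 75.2 ± 3.96 CPM in DMSO libraries, a log2 fold change of 0.24 ± 0.04 (edgeR adjusted p = 8.21e-06). The other rises were in NDUFA4 at a log2 fold change of 0.24, NDUFC2 at 0.30, NDUFB4 at 0.19, NDUFB1 and NDUFA3 at 0.17, and NDUFS6 at 0.16.

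Among the 7 nuclear core subunits of complex I, which carry the cofactors and are conserved from bacteria, 0 rose and 2 fell. The share called was 28.6%, against 38.3% of all tested genes. NDUFV1, which binds the flavin and NADH, averaged 196 ± 6.72 CPM in compound E and 213 ± 3.97 CPM in DMSO libraries, a log2 fold change of -0.12 ± 0.03 (edgeR adjusted p = 0.00198). NDUFS4, an accessory subunit next to the NADH-oxidising part whose loss causes Leigh syndrome, measured 27.8, 27.6 and 28.1 CPM in compound E libraries, against 36.1, 33.9 and 31.7 CPM in DMSO libraries. It had the largest fall among called nuclear subunits, with a log2 fold change of -0.29 ± 0.06 (edgeR adjusted p = 0.000133). NDUFB5 at -0.16 and NDUFB9 at -0.09, both of the membrane arm, were the other falls. The call of NDUFB5 was lost without DMSO replicate 1 (edgeR adjusted p = 0.0907), without compound E replicate 2 (0.0787) and without compound E replicate 3 (0.0501).

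Complex II, which oxidises succinate, had 1 call in 4 subunits, or 25%, against 38.3% of all tested genes. SDHA, its flavoprotein, measured 142, 146 and 138 CPM in compound E libraries, against 150.3, 151 and 152 CPM in DMSO libraries. The groups did not overlap, but the difference was small, a log2 fold change of -0.09 ± 0.03 (edgeR adjusted p = 0.0245), and the call was kept in only 1 of the 6 analyses that left out a library, the one without compound E replicate 2; the edgeR adjusted p was 0.057 to 0.0968 in the other 5. SDHB, the iron-sulphur subunit, had a log2 fold change of -0.06 ± 0.05 and the membrane anchors SDHC and SDHD had 0.00 ± 0.04 and -0.10 ± 0.05, none of which was called, although SDHD was called without DMSO replicate 3 (edgeR adjusted p = 0.0414). The 4 assembly factors SDHAF1 to SDHAF4, which handle iron-sulphur clusters and flavin insertion, had 0 calls.

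Complex III, which passes electrons to cytochrome c, had 2 of 8 nuclear subunits higher and 3 lower. The share called was 62.5%, against 38.3% of all tested genes. UQCR11, its smallest subunit, measured 17.7, 18.6 and 20.8 CPM in compound E libraries, against 13.2, 14.6 and 14.2 CPM in DMSO libraries. All 3 compound E libraries were higher, and the log2 fold change of 0.45 ± 0.08 was the largest rise among nuclear subunits (edgeR adjusted p = 1.85e-05). UQCR10, another small subunit, rose by 0.16 ± 0.05 on the log2 scale (edgeR adjusted p = 0.0068), a call lost without compound E replicate 1 (0.0675). The large core proteins moved down. UQCRC1 measured 145.5, 142 and 148 CPM in compound E libraries, against 157, 159 and 156 CPM in DMSO libraries, a log2 fold change of -0.12 ± 0.03 (edgeR adjusted p = 0.00306). UQCRC2 fell by 0.08 on the log2 scale and the accessory UQCRB fell by 0.11, and the call of UQCRC2 was kept only without compound E replicate 2 among the 6 analyses that left out a library (edgeR adjusted p up to 0.118), that of UQCRB in all but the one without compound E replicate 1 (0.0774). The Rieske iron-sulphur protein UQCRFS1 was at 0.02 ± 0.04 and was not called.

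Complex IV, which reduces oxygen, had 3 of 11 tested nuclear subunits higher and 0 lower. The share called was 27.3%, against 38.3% of all tested genes. COX7A2, the ubiquitous form of subunit VIIa, measured 69.5, 63.4 and 66.8 CPM in compound E libraries, against 60.0, 58.3 and 53.7 CPM in DMSO libraries. The groups did not overlap and the log2 fold change was 0.21 ± 0.05 (edgeR adjusted p = 0.000271). COX6C rose by 0.12 ± 0.03 on the log2 scale (edgeR adjusted p = 0.00196). COX6B1, a subunit on the side facing the intermembrane space, rose by 0.10 ± 0.04 (edgeR adjusted p = 0.0372), a call lost on removal of DMSO replicate 1 (0.0692) or 3 (0.223) or of compound E replicate 2 (0.0717) or 3 (0.101). COX8A, at 0.08 ± 0.04, was not called but was called without DMSO replicate 2 (edgeR adjusted p = 0.0396) and without compound E replicate 1 (0.0168). COX4I1, COX5A and COX5B, the larger nuclear subunits, were at -0.03, -0.07 and 0.00 and were not called.

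Complex V had 4 of 17 nuclear subunits higher and 3 lower. The share called, 41.2%, was close to the 38.3% of all tested genes. ATP5F1E, the small epsilon subunit of the F1 head, measured 192, 187 and 188 CPM in compound E libraries, against 163, 161 and 168 CPM in DMSO libraries. Every compound E library was higher, and the log2 fold change was 0.20 ± 0.03 (edgeR adjusted p = 1.02e-06). The catalytic pair behaved otherwise: ATP5F1B averaged 762 ± 12.2 CPM in compound E and 763 ± 2.5 CPM in DMSO libraries and was not called, and ATP5F1A averaged 519 ± 3.32 CPM in compound E and 542 ± 9.05 CPM in DMSO libraries, a log2 fold change of -0.06 ± 0.03 (edgeR adjusted p = 0.0469). ATP5PB, of the peripheral stalk, fell by 0.10 on the log2 scale and ATP5MC2, of the ring, fell by 0.08, whereas ATP5PF, also of the stalk, had a log2 fold change of 0.13 and the small membrane subunits ATP5MD and ATP5MF had 0.14 and 0.09. Apart from ATP5F1E, the calls of complex V were each lost on removal of at least 1 library. The call of ATP5F1A was kept only without compound E replicate 3, and that of ATP5MC2 likewise. The call of ATP5PB was lost without compound E replicate 1, that of ATP5PF without DMSO replicates 2 or 3 or compound E replicate 2, that of ATP5MD without DMSO replicate 1 or compound E replicate 1, and that of ATP5MF without DMSO replicate 1 or compound E replicates 1 or 3, with edgeR adjusted p between 0.0534 and 0.343 across these.

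**Figure D2:**
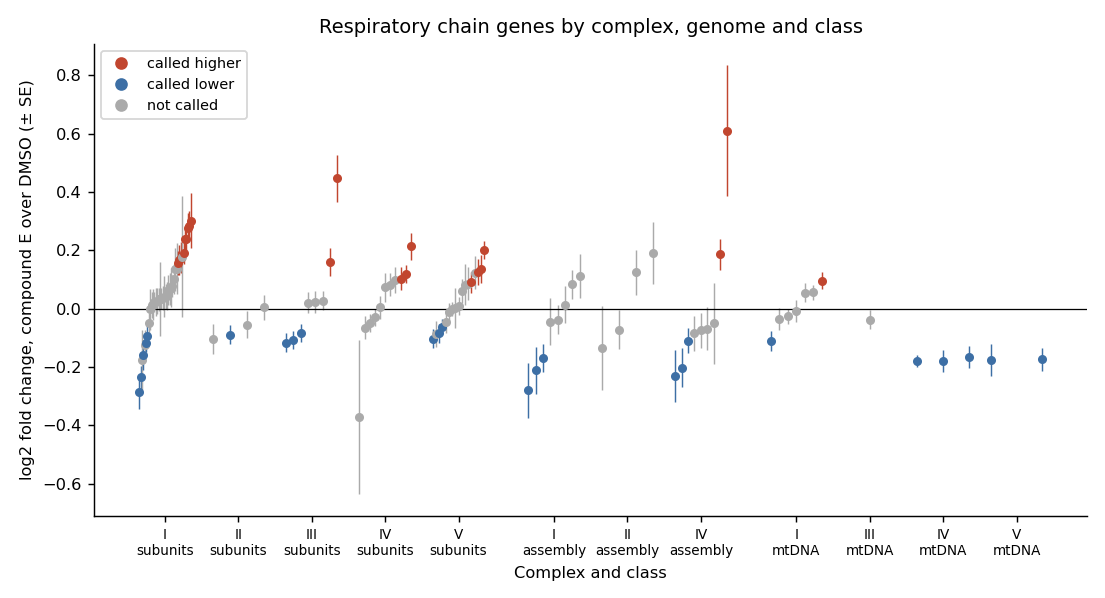
Log2 fold change of compound E over DMSO with its standard error for each tested subunit and assembly factor, by complex and class, sorted within each; red points were called higher, blue lower and grey not called. UQCR11 at 0.45 and the assembly factor COX16 at 0.61 are the highest called points, and the genes of mitochondrial DNA (mtDNA) for complexes IV and V all lie between -0.18 and -0.17.

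The nuclear subunits that rose had shorter coding sequences than those that fell. The 18 that rose had a median coding length of 276 bases, the 12 that fell 1064 bases and the 48 not called 464 bases. With the subunits split at 450 bases, a limit set after the values were seen, 16 of the 39 at or below it rose and 0 fell. Of the 39 above it, 2 rose and 12 fell, or 5.13% and 30.8%. Of all 11890 tested protein-coding genes above the limit, 22.6% were called higher and 22.4% lower. Spearman's correlation between coding length and log2 fold change was -0.62 over the 78 subunits, which share the same 6 libraries and are not independent, and -0.02 over 12664 tested protein-coding genes. Other short genes did not all lean 1 way. Of 686 other tested protein-coding genes at or below the limit, leaving out cytosolic ribosomal protein genes, 24.9% were called higher and 12.4% lower. That lean had the same direction as in the short subunits, 41% of which rose. Of 31 short cytosolic ribosomal protein genes 1 was called higher and 26 lower. With the trend of gene length over all tested genes removed from each library, 18 subunits were called higher and 9 lower. Gene length is not coding length: its Spearman correlation with log2 fold change was -0.39 over the subunits and -0.02 over tested protein-coding genes. With so weak a trend across genes, its removal cannot decide whether coding length matters.

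A grouping by role gave similar counts. The 17 subunits of the catalytic or core parts of complexes I, II, III and V had 1 rise, ATP5F1E, and 6 falls, with a median log2 fold change of -0.06. The other 61 tested nuclear subunits had 17 rises and 6 falls and a median of 0.06. The shares called, 41.2% of the 17 and 37.7% of the 61, were close to the 38.3% of all tested genes. Over all tested genes, 18.9% were called higher and 19.4% lower. The grouping by role was made after the values were seen and overlaps with length, so the part of each was not tested.

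**Figure D3:**
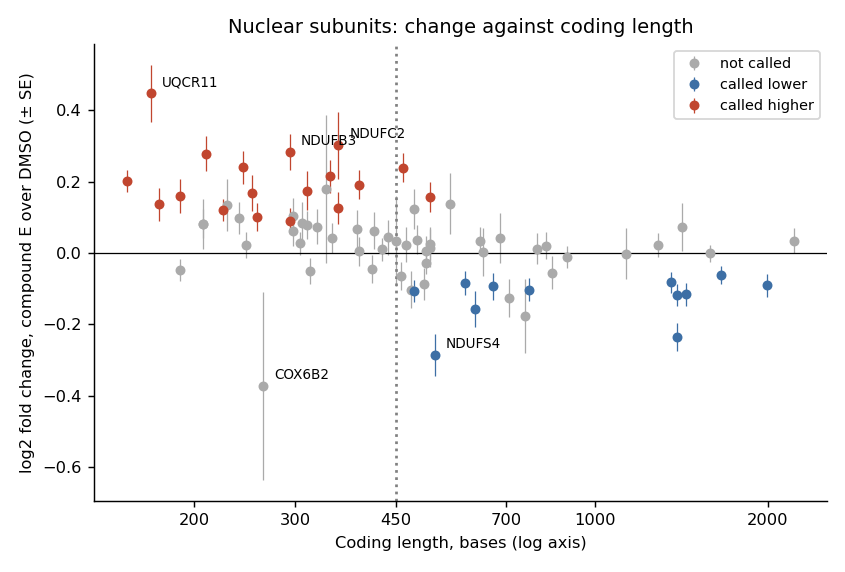
Log2 fold change of compound E over DMSO with its standard error against coding length in bases, on a log axis, for the 78 tested nuclear subunits; the dotted line marks 450 bases. All blue points, called lower, lie right of the line, and 16 of the 18 red points, called higher, lie at or left of it.

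Of the 21 assembly factors, all tested, 2 rose and 6 fell, with a median log2 fold change of -0.07. Their summed level was 527 ± 7.87 CPM in compound E libraries and 544 ± 4.99 CPM in DMSO libraries. The 8 called make up 38.1%, close to the background, and every compound E library had a lower sum than every DMSO library. NDUFAF3, an early factor of complex I assembly, measured 49.5, 48.8 and 50.5 CPM in compound E libraries, against 58.2, 53.6 and 55.5 CPM in DMSO libraries. The groups did not overlap, and the log2 fold change was -0.17 ± 0.05 (edgeR adjusted p = 0.00344). NDUFAF2, which binds a late complex I intermediate, was at -0.28 ± 0.09, NDUFAF7, a methyltransferase, at -0.21 ± 0.08, COX10, which makes haem O, at -0.20 ± 0.07, COX19 at -0.23 ± 0.09 and COX11, both of copper delivery to complex IV, at -0.11 ± 0.04. In the opposite direction, COX17, the copper chaperone of the intermembrane space, measured 41.4, 40.3 and 37.6 CPM in compound E libraries, against 34.1, 35.5 and 35.3 CPM in DMSO libraries. All 3 compound E libraries were higher, with a log2 fold change of 0.19 ± 0.05 (edgeR adjusted p = 0.00556). COX16 rose by 0.61 ± 0.22 on counts of 39, 46 and 48 in compound E libraries and 23, 39 and 27 in DMSO libraries.

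Most of these assembly factor calls were lost on removal of 1 library. Where 6 factors were called lower, 1 was without compound E replicate 2, and 3 without compound E replicate 3 or DMSO replicate 3. The call of NDUFAF2 was lost without DMSO replicate 2 or compound E replicate 2, of NDUFAF7 without DMSO replicate 3 or compound E replicates 2 or 3, of COX10 without DMSO replicate 3 or compound E replicate 2, of COX19 without DMSO replicate 3 or compound E replicates 2 or 3, and of COX11 without DMSO replicates 1 or 2 or compound E replicates 2 or 3. COX16 lost its call without DMSO replicates 1 or 3 or compound E replicates 2 or 3, and across all these the edgeR adjusted p lay between 0.051 and 0.289. The calls of NDUFAF3 and COX17 were kept in all 6 such analyses.

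The 13 mitochondrially encoded genes, which are read from a circular chromosome as long transcripts that are then cut, took 4.12%, 4.28% and 4.77% of all counts in compound E libraries, against 4.76%, 4.82% and 4.64% in DMSO libraries. The groups overlapped, because compound E replicate 3 stood with the DMSO libraries. Of the 13 genes 6 fell, 1 rose and 6 were not called, with a median log2 fold change of -0.04. The share called was 53.8%, against 38.3% of all tested genes. All 3 complex IV genes and both complex V genes were among the falls. MT-CO1, the catalytic subunit of complex IV, measured 10130, 10607 and 10869 CPM in compound E libraries, against 12017, 11841 and 11951 CPM in DMSO libraries. It was the only one of the 13 whose groups did not overlap, and its log2 fold change was -0.18 ± 0.02 (edgeR adjusted p = 2.3e-09).

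MT-CO2, the copper-bearing partner of MT-CO1, measured 4951, 5280 and 6162 CPM in compound E libraries, against 6210, 6444 and 5910 CPM in DMSO libraries. Here compound E replicate 3 lay inside the DMSO range and the other 2 compound E libraries lay below it. MT-CO2 had a log2 fold change of -0.18 ± 0.04 (edgeR adjusted p = 0.000206), MT-CO3 -0.17 ± 0.04 (0.00059) and MT-ATP6, the proton channel subunit of ATP synthase, -0.17 ± 0.04 (0.000565). MT-ATP8 had -0.18 ± 0.06 (edgeR adjusted p = 0.0115), a call lost on removal of DMSO replicate 1 (0.0896) or 2 (0.0534) or of compound E replicate 1 (0.276). MT-ND4, the complex I gene that fell, had -0.11 ± 0.03 (edgeR adjusted p = 0.00858), a call lost without compound E replicate 1 (0.179) or compound E replicate 2 (0.0658).

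MT-ND3, a small complex I subunit, measured 1215, 1190 and 1354 CPM in compound E libraries, against 1162, 1166 and 1190 CPM in DMSO libraries. The groups overlapped by 1 library, and the rise of 0.10 ± 0.03 on the log2 scale (edgeR adjusted p = 0.00901) was not called without compound E replicate 3, the highest library (0.198). MT-ND1, MT-ND2, MT-ND4L, MT-ND5 and MT-ND6 of complex I and MT-CYB of complex III had log2 fold changes between -0.04 and 0.06 and were not called. Without compound E replicate 3, 9 of the 13 were called lower and 0 higher, with a median of -0.13, and MT-ND2 (-0.13, edgeR adjusted p = 7.26e-06), MT-CYB (-0.11, 3.13e-05) and MT-ND6 (-0.09, 0.0126) were then among the falls. Without compound E replicate 1, 4 were called lower and 3 higher, MT-ND1 at 0.11 (edgeR adjusted p = 0.00183) and MT-ND5 at 0.10 (0.00158) joining MT-ND3, and MT-ND5 was also called higher without DMSO replicate 2 (0.0411). MT-CO1, MT-CO2, MT-CO3 and MT-ATP6 were called lower in all 6 analyses that left out a library. DESeq2 kept 1 of the 6 falls.

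**Figure D4:**
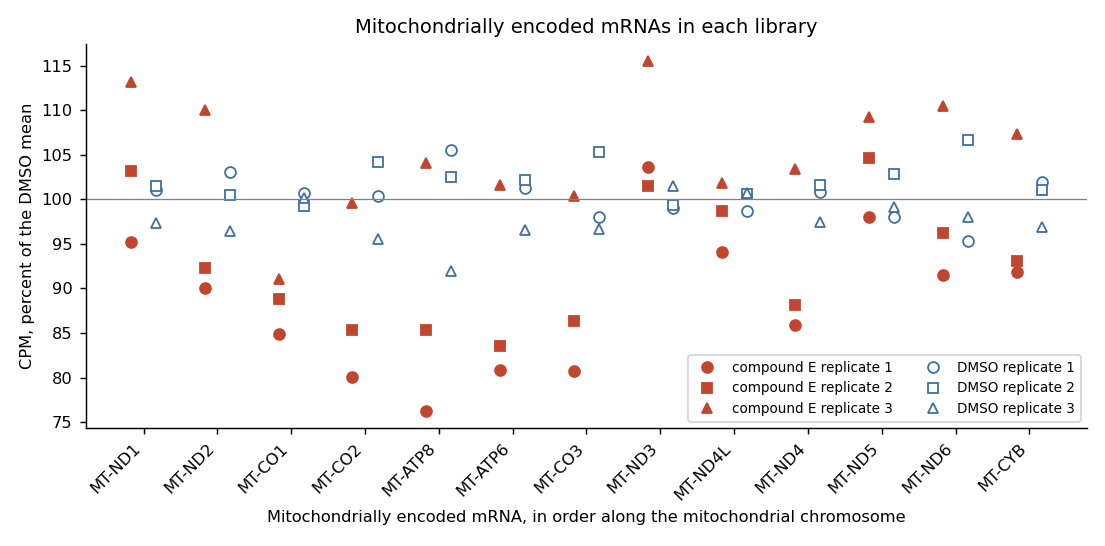
CPM of each mitochondrially encoded mRNA in each library as a percentage of the mean of the DMSO libraries, in order along the mitochondrial chromosome, with compound E filled on the left and DMSO open on the right of each position. Compound E replicate 3 (triangles) lies above its fellow replicates for every gene, and only for MT-CO1 are all compound E points below all DMSO points.

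Some neighbouring mitochondrial genes share bases, and reads in the shared stretches may not have been separable by counting. MT-ATP8 and MT-ATP6 share 46 bases of the plus strand, positions 8527 to 8572 of chromosome MT in GENCODE release 29, where the MT-ATP6 reading frame starts inside MT-ATP8. The shared stretch is shown with the MT-ATP6 start codon in capitals.
MT-ATP8 and MT-ATP6 overlap: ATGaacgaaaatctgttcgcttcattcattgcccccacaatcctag
MT-ATP8 had 144 ± 23.1 CPM in compound E and 163 ± 11.6 CPM in DMSO libraries, and MT-ATP6 had 3940 ± 500.4 CPM in compound E and 4444 ± 133 CPM in DMSO libraries. The mRNA of both is known as 1 transcript, so the split between them depends on how reads in the overlap were assigned, which no source used here states. MT-ND4L and MT-ND4 overlap by 7 bases, and MT-ND6 lies on the opposite strand from the others; use of the strand in counting is likewise not stated.

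Among the 8 members set apart by name, 3 of the 5 tested fell and 0 rose, or 60% called against 38.3% of all tested genes. NDUFA4L2, a paralog of NDUFA4 known as a hypoxia-inducible gene, measured 0.766, 0.774 and 1.06 CPM in compound E libraries, against 5.13, 4.44 and 4.74 CPM in DMSO libraries. Its counts were 14, 14 and 20 in compound E libraries and 99, 88 and 82 in DMSO libraries. The groups were far apart, with a log2 fold change of -2.45 ± 0.21, or 5.45-fold lower with compound E (edgeR adjusted p = 2.0e-12). The fall was called under all 18 alternatives that tested it, with log2 fold changes between -2.62 and -1.04. The smallest, -1.04, came from FPKM with a pseudocount of 1, a scale that understates the change of low genes. NDUFA4 itself, now placed in complex IV although its symbol groups it here with complex I, measured 64.7, 64.7 and 60.7 CPM in compound E libraries, against 54.9, 55.1 and 50.9 CPM in DMSO libraries. It moved the other way by 0.24 ± 0.05 on the log2 scale (edgeR adjusted p = 4.83e-05). Per length, NDUFA4L2 made up 1.71% ± 0.394 of the summed FPKM of the pair in compound E libraries and 10.1% ± 0.752 in DMSO libraries.

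COX7A2L, a relative of COX7A2 that links complexes III and IV in supercomplexes, measured 77.7, 81.3 and 74.9 CPM in compound E libraries, against 103, 95.6 and 96.5 CPM in DMSO libraries. All compound E libraries lay below all DMSO libraries, with a log2 fold change of -0.33 ± 0.04 (edgeR adjusted p = 7.07e-09), whereas COX7A2 rose. Of the summed FPKM of the COX7A family, COX7A2L held 28.4% ± 1.63 in compound E libraries and 36.9% ± 1.07 in DMSO libraries, and COX7A2 held 70.8% ± 1.56 in compound E libraries and 62.7% ± 1.04 in DMSO libraries. UQCRHL, a near-identical copy of the hinge protein gene UQCRH, had a log2 fold change of -0.41 ± 0.15 (edgeR adjusted p = 0.0331), a call lost on removal of DMSO replicate 2 (0.279) or of either compound E replicate 1 (0.0722) or 3 (0.123). It had 67 to 77 counts in compound E and 77 to 123 in DMSO libraries while UQCRH was at 0.03 ± 0.03, and reads from the copies may have been split between them. ATP5IF1, the inhibitor of ATP synthase, was at 0.01 ± 0.04 and ATP5S at -0.05 ± 0.06, and neither was called. ATP5MGL and the readthrough genes NDUFC2-KCTD14 and ATP5MF-PTCD1 did not pass the filter.

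**Figure D5:**
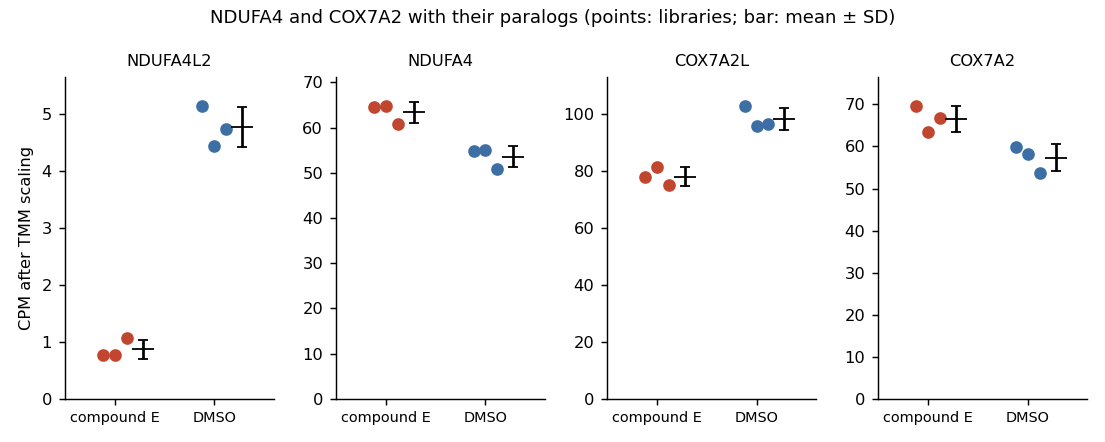
CPM in each library for NDUFA4L2, NDUFA4, COX7A2L and COX7A2, with compound E left and DMSO right; points are libraries and the bar is the mean with its SD. NDUFA4L2 at 0.868 against 4.77 CPM and COX7A2L at 77.9 against 98.2 CPM are lower with compound E, and NDUFA4 and COX7A2 are higher.

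The genes that drive and serve the chain were taken from lists. Over all tested genes, 38.3% were called, 18.9% higher and 19.4% lower. Regulators of mitochondrial biogenesis had 6 of 9 tested genes higher and 0 lower, or 66.7% called, with a median log2 fold change of 0.15. ESRRA, a nuclear receptor of oxidative metabolism, averaged 72.9 ± 2.12 CPM in compound E and 59.6 ± 0.672 CPM in DMSO libraries, a log2 fold change of 0.29 ± 0.04 (edgeR adjusted p = 3.93e-07). NRF1 rose by 0.26, GABPB1, a subunit of GABP, by 0.25 and the coactivator PPRC1 by 0.23 on the log2 scale, while PPARGC1A, another coactivator, had 0 counts in every library. Mitochondrial transcription and RNA handling had 6 of 29 higher and 2 lower, or 27.6% called. POLG, the polymerase that copies mitochondrial DNA, averaged 233 ± 6.41 CPM in compound E and 166 ± 1.85 CPM in DMSO libraries, a log2 fold change of 0.49 ± 0.03 (edgeR adjusted p = 8.69e-17). LRPPRC, which stabilises mitochondrial mRNAs, averaged 186 ± 8.25 CPM in compound E and 251 ± 2.15 CPM in DMSO libraries, a log2 fold change of -0.43 ± 0.03 (edgeR adjusted p = 1.08e-14). FASTKD5 at 0.32, FASTKD3 at 0.30 and HSD17B10 at 0.24, all of mitochondrial RNA processing, were higher, and TBRG4, also named FASTKD4, at -0.11 was lower, a call lost without DMSO replicates 1 (edgeR adjusted p = 0.0507) or 2 (0.0534) or compound E replicate 1 (0.0883). TFAM, which packages and transcribes mitochondrial DNA, was at -0.01 and was not called.

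Mitochondrial translation factors had 0 of 10 higher and 2 lower, or 20% called against 38.3% of all tested genes. The 2 were TUFM, the elongation factor, at -0.31 ± 0.03 and OXA1L, which inserts new subunits into the inner membrane, at -0.29 ± 0.04. Of the 29 tested assembly factors outside the name rule, 20.7% were called. The 3 higher were TMEM126B at 0.20, CMC2 at 0.15 and SURF1 at 0.15. The 3 lower were ECSIT at -0.48, UQCC1 at -0.17 and COA5 at -0.14. ECSIT, which acts in complex I assembly and in innate immune signalling, averaged 39.8 ± 3.03 CPM in compound E and 55.6 ± 2.41 CPM in DMSO libraries (edgeR adjusted p = 6.97e-10). Of these 6, the calls of ECSIT and UQCC1 were kept whichever library was left out, and the other 4 were lost without at least 1 library: TMEM126B without DMSO or compound E replicate 2, CMC2 without DMSO or compound E replicates 1 or 2, SURF1 without DMSO replicates 1 or 2 or compound E replicate 3, and COA5 without DMSO replicate 2 or compound E replicate 1, with edgeR adjusted p from 0.0533 to 0.202. CYC1, CYCS and HCCS, for cytochrome c1, cytochrome c and its haem lyase, had 0 calls.

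Upstream of the chain, pyruvate dehydrogenase and the citric acid cycle had 2 of 18 genes higher and 7 lower. The share called was 50%, against 38.3% of all tested genes. FH, fumarase, averaged 96.5 ± 1.92 CPM in compound E and 72.6 ± 3.86 CPM in DMSO libraries, a log2 fold change of 0.41 ± 0.04 (edgeR adjusted p = 5.48e-11), and IDH3G rose by 0.18 on the log2 scale. SUCLG2, the GTP-forming subunit of succinyl-CoA ligase, averaged 20.3 ± 0.517 CPM in compound E and 29.8 ± 0.229 CPM in DMSO libraries, a log2 fold change of -0.56 ± 0.06 (edgeR adjusted p = 1.49e-09). MDH2, CS and DLD were lower by smaller amounts, at -0.11, -0.10 and -0.11, and the call of DLD was lost without DMSO replicates 1 (edgeR adjusted p = 0.077) or 3 (0.0702) or compound E replicate 1 (0.0634). Of the carriers that exchange ADP and ATP or bring in phosphate, 1 of 4 rose and 2 fell, or 75% called. SLC25A6, the most abundant ADP/ATP carrier gene by CPM here, averaged 713 ± 23.0 CPM in compound E and 897 ± 13.2 CPM in DMSO libraries, a log2 fold change of -0.33 ± 0.03 (edgeR adjusted p = 6.54e-14). SLC25A3, the phosphate carrier, was at -0.13 ± 0.03, and SLC25A4, the muscle-type carrier with 10.9 ± 0.389 CPM in compound E and 8.84 ± 0.498 CPM in DMSO libraries, was at 0.30 ± 0.10, a call lost without DMSO replicate 3 (edgeR adjusted p = 0.0795) or compound E replicate 2 (0.0637).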

How the data were processed

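RNA was sequenced from MOLT-3 cells, 3 libraries per group, after poly-T selection of messenger RNA, per the labels. The authors deposited whole-number read counts per gene, not normalised, and FPKM values, which the counts, gene lengths and 1 divisor per library reproduce. The submitters' processing notes name featureCounts 1.5.0-p3, HISAT2 2.0.5 and DESeq2 1.16.1, without saying what each did. No source used here gives the genome build, the annotation, the use of the strand or the treatment of reads with several matches, so overlapping genes and genes with near-identical copies are uncertain. All 125 genes had the positions of GENCODE release 29, from which coding length was taken as the longest coding sequence among a gene's transcripts.

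Counts were analysed with edgeR 4.0.16 in R 4.3.3: filterByExpr, TMM, a quasi-likelihood F-test on treatment alone and Benjamini-Hochberg adjustment over 16926 genes. The procedure was tested on simulated data. CPM, log2 fold changes, their SE and paralog shares were computed here. FPKM was used for levels per length.

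Complexes follow gene symbols. Members named were all mitochondrially encoded genes, up to 4 called members per direction with the smallest p in each complex and class, SDH subunits, paralog families, and the highest and lowest FPKM of each complex; of each list, up to 4 called genes per direction. Other called members, the members set apart, the pathway genes not called, the split at 450 bases and the grouping by role were picked once their values had been seen. The members and lists were chosen with earlier results of these data known. Alternatives left out each library in turn, blocked on the replicate number, dropped the mitochondrial genes, removed a trend with gene length, scaled by upper quartile, by RLE or by total alone, and filtered either not at all or more strictly. Other tools were DESeq2 1.42.0, voom from limma 3.58.1, and limma on log2-transformed FPKM (pseudocount 1 or 0.1, or unfiltered). The values of 1 member that the rule selects are not reported here. Plots were drawn with matplotlib 3.10.9.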

Additional observations from a re-analysis of the deposited data

How the results depend on the processing

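Under the alternatives, 0 called genes changed direction, and of 1730 values for 92 named genes 1475 kept their side of the threshold, 243 lost the call and 12 gained one. Nuclear subunits called higher numbered 18, and 11 with DESeq2, 11, 10 and 8 with FPKM at pseudocount 1, pseudocount 0.1 and no filter, and 15 to 18 with a library left out. Those called lower numbered 12, and 7 with no filter on counts, 5 with DESeq2, 3, 2 and 2 with FPKM in the same order, and 5 to 9 with a library left out. Assembly factors called higher numbered 2, and 1 with the stricter filter, 1 with DESeq2, 1 with FPKM at pseudocount 0.1, 0 with FPKM and no filter, and 1 to 3 with a library left out; those called lower numbered 6, and 1 with DESeq2, 3, 3 and 2 with FPKM, and 1 to 6 with a library left out. Mitochondrially encoded genes called higher numbered 1, and 2 with no filter on counts, 2 with limma-voom, 2 with the gene length trend removed, 0 with DESeq2, 0 with each FPKM setting, and 0 to 3 with a library left out; those called lower numbered 6, and 1 with DESeq2, 1 with each FPKM setting, and 4 to 9 with a library left out. Over all genes 3206 were called higher and 3278 lower, against 2036 and 1954 with FPKM and no filter, and DESeq2 called 2134 lower; with a library left out there were 2838 to 3027 higher and 2833 to 3041 lower. The mitochondrial share of counts in DMSO libraries was 4.74%, and 4.94% of protein-coding counts. The cause of these shifts was not tested. A fit with a library left out also has fewer samples, and whether that moved the counts was not tested either. On the scale of log2 FPKM with a pseudocount of 1, the log2 fold change of DTX1 was -3.94, against -4.60 from counts. Removal of the gene length trend was chosen after seeing the data.

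The replicate numbers did not pair the libraries: same-numbered libraries deviated with correlations of 0.0103, -0.0191 and 0.000118. With the replicate block 16 nuclear subunits were called higher and 10 lower, 2 assembly factors higher and 5 lower, and 1 mitochondrial gene higher and 6 lower, with 3019 higher and 3119 lower over all genes. Depth limits what can be said of genes with few counts, such as COX16 and COX6B2, whose log2 fold changes had SEs of 0.22 and 0.26.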

Other observations

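The same chromosome carries ribosomal and transfer RNA genes, which are no part of the protein-coding chain. The libraries were made after poly-T selection, so counts of these genes may not give the levels of their RNAs. Both ribosomal RNAs were called lower with compound E, but their groups overlapped. MT-RNR1 had 602 CPM in compound E replicate 2 and 598 in DMSO replicate 1. MT-RNR2 had 4394 and 4254 CPM in the same libraries. MT-RNR1 averaged 554 ± 42.4 CPM in compound E and 667 ± 90.9 CPM in DMSO libraries, a log2 fold change of -0.27 ± 0.05 (edgeR adjusted p = 2.3e-05). MT-RNR2 averaged 4097 ± 294 CPM in compound E and 4329 ± 89.1 CPM in DMSO libraries, a log2 fold change of -0.08 ± 0.03 (edgeR adjusted p = 0.0239). Of the transfer RNAs, MT-TH had a log2 fold change of 0.36 ± 0.08 and MT-TC 0.16 ± 0.05, both called higher, and MT-TP had -0.32 ± 0.07 and was called lower.

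Pseudogenes share sequence with the members. Of 168 pseudogenes named after nuclear members, 14 were tested, 1 of them called higher (COX20P1) and 1 lower (SDHDP6). That is 14.3% called, against 38.3% of all tested genes. Of 394 nuclear pseudogenes of mitochondrial genes, 11 were tested, 3 of them called higher and 1 lower, or 36.4% called. MTATP6P1 averaged 333 ± 50.1 CPM in compound E and 373 ± 6.2 CPM in DMSO libraries, with a log2 fold change of -0.16 ± 0.05 (edgeR adjusted p = 0.00718). MT-ATP6 itself had -0.17. MTND1P23 and MTND2P28 had 0.13 ± 0.05 and 0.10 ± 0.04 and were called higher, while MT-ND1 and MT-ND2 had 0.05 and -0.04 and were not called. MTND4P12, with only 1.68 ± 0.496 CPM in compound E and 0.981 ± 0.165 CPM in DMSO libraries, had 0.78 ± 0.28. It was called higher (edgeR adjusted p = 0.0238), whereas MT-ND4 had -0.11 and was called lower. Whether reads were split between these copies was not tested.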
